A study of Rattus rattus with 23 samples.

Results

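The motile axoneme genes examined here were picked by a rule on gene names that used no measured value. Earlier results of these data were known when the rule was set. A probe set belonged to them when its single platform gene symbol began with Dnah, Dnai, Dnaaf, Drc, Rsph, Tekt, Cfap, Spag6, Spag16, Spag17, Efhc or Spef, or was Ropn1l, Akap14, Mlf1, Ak7, Hydin, Ccdc39 or Ccdc40. This gave 55 genes of the 14217 with a single symbol on the array, and Hydin and Ccdc39 had no probe set with a single symbol. Each gene was represented by the probe set with the highest mean level over all arrays. A level is log2 of the deposited signal plus 16, a scale that understates differences of genes with low signals.

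Affymetrix Rat230_2 arrays were used to measure RNA of the respiratory epithelium lining the nose of 23 male Sprague-Dawley rats, each rat on an array of its own. The rats were 10 weeks old by the design text and 60 days old by the sample labels, and breathed hydrogen sulfide (H2S, a toxic gas that blocks mitochondrial respiration) at 200 ppm, or air, through the nose for 3 h a day. Times count from the first exposure. There were 4 H2S animals at 3 h, 3 at 6 h and 4 at 24 h by their titles, and 4 at 144 h, given 5 days in a row. The titles give a time and a gas but no number of days, and the 3 earlier groups are taken here as given 1 day. Air animals numbered 4 at 24 h, taken as given 1 day as well, and 4 at 144 h, given 5 days by their labels. The 2 air groups thus differ in days of exposure as well as in time. The cells were cut out with a laser at the site of injury and regeneration, and their RNA was amplified in 2 rounds. Since no air animals were sampled at 3 h or 6 h, these groups were set against the air animals of 24 h, from which they differ in time as well. All 3 of the earlier exposed groups therefore share 1 set of air animals.

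A motile cilium beats because dynein motors, fixed in rows along the microtubule doublets of its shaft, the axoneme, walk on the neighbouring doublet. Radial spokes and a central pair of microtubules time the motors, the nexin-dynein regulatory complex links the doublets, and tektins and other proteins line the doublets from inside. The motors are put together in the cytoplasm by assembly factors before they are carried into the cilium. In the airways many of these genes are known as markers of multiciliated cells, which move mucus along the airway.

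Foxj1, the transcription factor that drives the motile cilium programme, was used to check for ciliated cells: its level lay between 8.20 in animal 10 and 11.30 in animal 22, and the log2 array medians lay between 7.09 and 8.41. Animals 18 (air, 24 h) and 22 (air, 144 h) had arrays that stood apart, with median correlations to the other arrays of 0.408 and 0.685, against 0.82 to 0.90 for the rest, and spike-in control signals 135 and 29.6 times that of the median array. The treatment label of animals 6 (H2S, 3 h), 14 (H2S, 24 h) and 18 gives 5 days, where the groups named by their titles are taken as given 1. The groups here follow the titles, and medians over the 55 genes that rest on these animals are given without them as well. RNA integrity numbers, on a scale that rises with intactness, were 4.8, 5.1, 4.5 and 1.7 in H2S animals at 144 h and 5.6, 6.4, 5.1 and 6.9 in air animals at 144 h, and were not given for animals 5, 6, 9 and 15. They were 2.6 in animals 13 (H2S, 24 h) and 18.

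The mean level of the 55 genes was highest in H2S animals at 144 h and lowest in those at 6 h, with a wide spread within most groups. It was 9.34, 9.45, 9.59 and 9.89 in H2S animals at 3 h, 8.76, 8.98 and 7.93 at 6 h, 9.15, 9.94, 8.29 and 9.76 at 24 h, and 10.46, 10.49, 9.26 and 10.68 at 144 h. In air animals it was 8.43, 9.28, 9.16 and 9.02 at 24 h and 8.27, 9.43, 9.44 and 10.20 at 144 h. The 3 animals with the highest level were H2S animals of 144 h, and the lowest of all was animal 10, exposed and sampled at 6 h. The H2S animals of 6 h lay below all those of 3 h, and those of 3 h lay just above all air animals of 24 h, while the groups overlapped in the other comparisons. Group means ± SD were 9.57 ± 0.24 at 3 h (n = 4), 8.56 ± 0.55 at 6 h (n = 3), 9.28 ± 0.74 at 24 h (n = 4) and 10.22 ± 0.65 at 144 h (n = 4) in H2S animals, and 8.98 ± 0.38 at 24 h and 9.33 ± 0.80 at 144 h in air animals (n = 4 each). In captured tissue, fewer ciliated cells and less RNA per ciliated cell cannot be told apart.

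**Figure D1:**
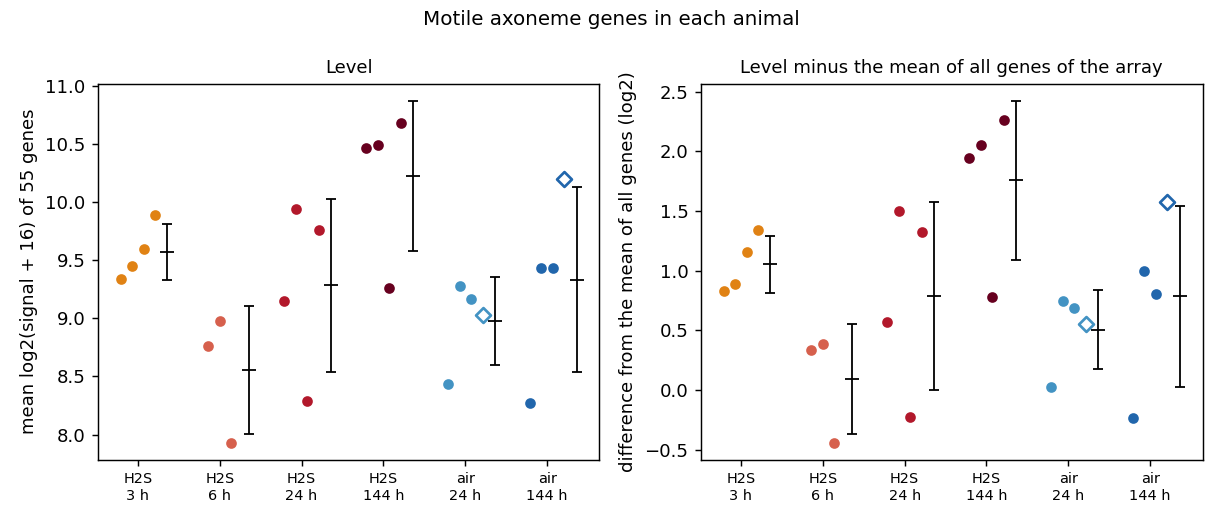
The left panel plots the mean log2(signal + 16) of the 55 axoneme genes in each animal, and the right panel that mean after subtracting the array's mean over all genes. Points are animals, bars are group means with SD, and open diamonds mark animals 18 and 22. Animal 25 at 144 h (9.26) lies far below the other 3 H2S animals of that time (10.46 to 10.68), and animal 10 at 6 h (7.93) is the lowest of all.

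Counting members above their own median over the 23 animals gave 51, 50, 15 and 54 of 55 in animals 23, 24, 25 and 26 (H2S, 144 h), against 10, 30, 29 and 45 in animals 19, 20, 21 and 22 (air, 144 h). In H2S animals of 24 h it was 14, 49, 2 and 44, against 2, 22, 9 and 21 in air animals of 24 h. At 6 h only 4, 12 and 4 of the 55 genes were above their median, and at 3 h 20, 33, 37 and 48. H2S animals of 24 h held both a pair with nearly all genes high (animals 12 and 14) and 1 with nearly all low (animal 13).

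**Figure D2:**
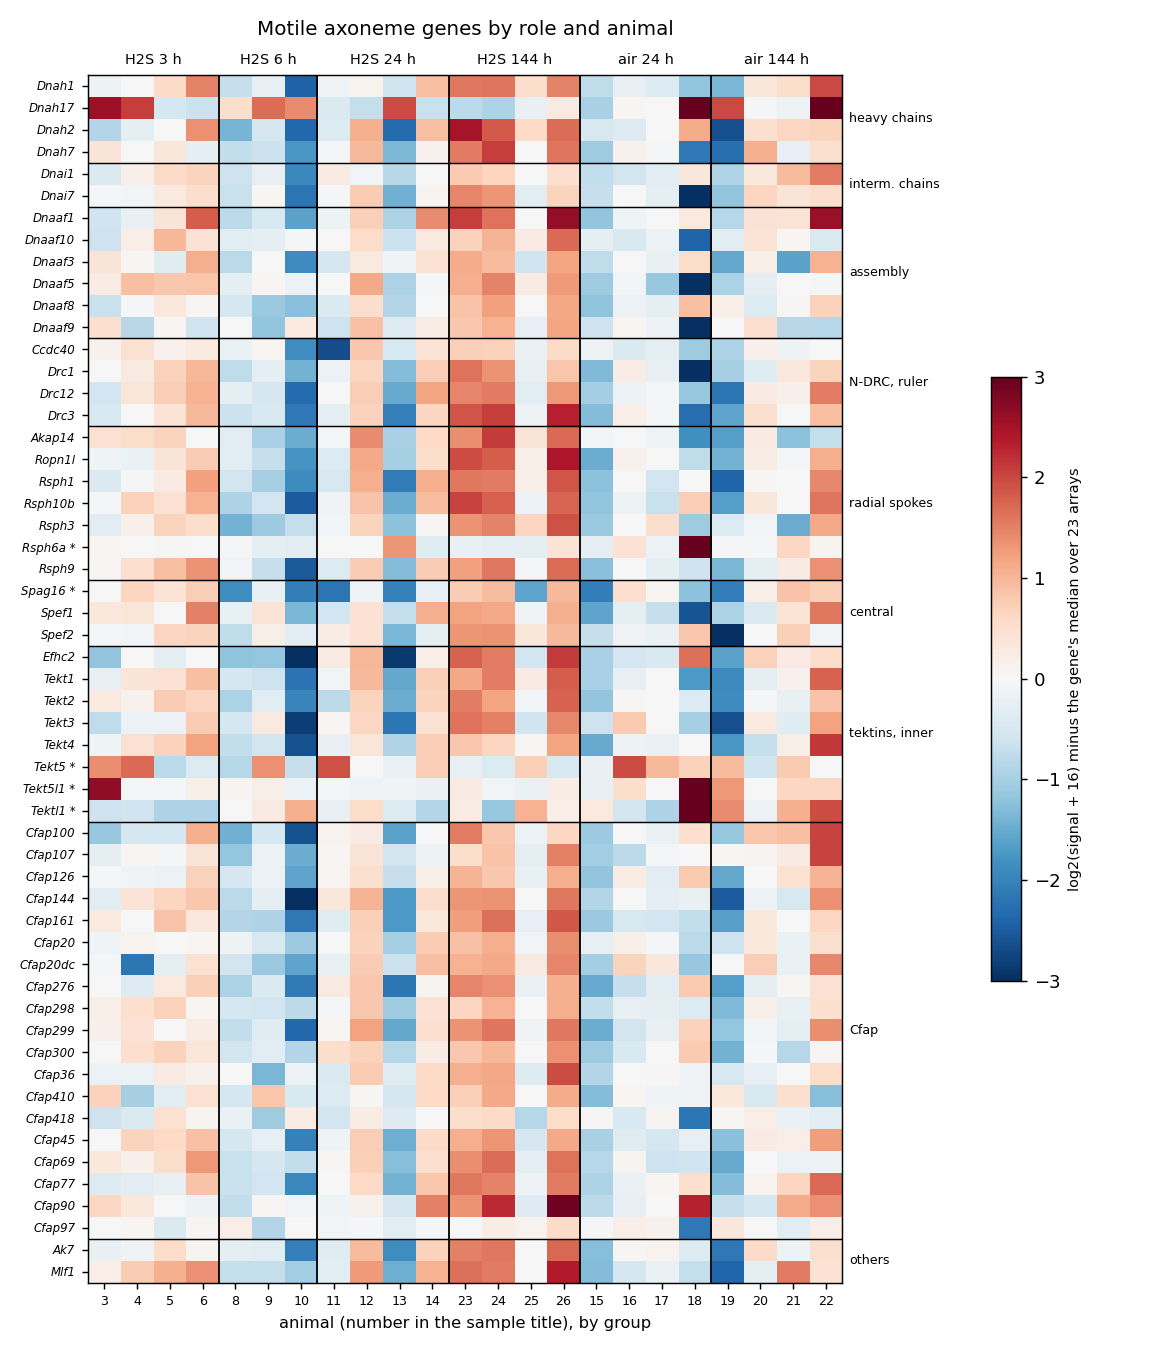
Each row is 1 of the 55 axoneme genes, grouped by role, and each column 1 animal. Colour is log2(signal + 16) minus the gene's median over the 23 arrays, cut at 3 in either direction, and an asterisk marks the 5 genes that did not pass the filter. Most rows share their columns' colours: animals 23, 24 and 26 are high, and animals 10, 13, 15 and 19 are low.

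No member passed limma's test in any comparison, with p adjusted by Benjamini-Hochberg over all probe sets tested and a threshold of 0.05. Of the 55 genes, 50 entered the test, each having exceeded its array's median signal on 3 or more arrays. Rsph6a, Spag16, Tekt5, Tekt5l1 and Tektl1 did not, so counts and medians of direction are given over all 55 genes and calls over the 50. Dnah17 and Rsph3 were each above the array median on 3 arrays only, those of animals 3, 18 and 22 for Dnah17 and of animals 23, 24 and 26, all H2S at 144 h, for Rsph3, Cfap90 on 8, Dnaaf3 on 9 and Cfap410 on 10.

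At 144 h, after repeated exposure, nearly all axoneme genes had higher mean levels in H2S than in air animals, but the spread between animals was as large. Of all 55, 50 were higher and 5 lower in H2S animals, with a median difference of 1.00, whereas 40.5% of all 31042 probe sets were higher and 59.5% lower, with a median of -0.14. None of the 50 tested members was called, and none of all probe sets was either (0% called higher and 0% lower). At an unadjusted p under 0.05, 21 members were higher and 0 lower, against 3.8% of tested probe sets higher and 4% lower. Since the members move together from animal to animal, such counts, here and in the other comparisons, are not of independent genes. The 21 include Rsph3, which passed the filter only through H2S animals of 144 h, so its part in that count adds no support. Akap14 and Dnaaf5 were the 2 genes whose H2S and air animals did not overlap, a pattern seen higher in 1.82% of all probe sets. Without animals 18 and 22, left out together once the values were known, the median difference was 1.43 and 8 genes did not overlap, all higher, where the share of all probe sets was 3.82%. Animal 19 (air, 144 h), with the lowest axoneme level of its group, had a level of the cartilage collagen Col2a1 of 13.44, against 5.61, 7.75 and 8.71 in the other 3 air animals of 144 h; the part of this in the result was not tested. Without animal 19 the median difference of the 50 tested genes was 0.71, against 1.09 with it.

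At 3 h, 45 of the 55 genes were higher and 10 lower in H2S animals than in air animals of 24 h, with a median difference of 0.61, against 46.8% of all probe sets higher. Limma called 0 of the 50 tested members, with 0.0706% of all tested probe sets called higher and 0.0101% lower. At an unadjusted p under 0.05, 7 members were higher and 0 lower, against 6% and 3.79% of tested probe sets. The animals of the groups did not overlap for 11 genes, all higher in H2S animals, against 2.16% of all probe sets. Without animals 18 and 22 the median was 0.63 and 16 genes did not overlap, against 4.51% of all probe sets, and without animals 6, 14 and 18 it was 0.52 and 17, against 6%. On the 19 arrays with an RNA integrity number, which lack animals 5, 6, 9 and 15, the median of the 50 tested genes was 0.30, and 0.014 with that number as a covariate, against 0.69 on all arrays.

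At 6 h most members had lower means: 10 genes were higher and 45 lower in H2S animals than in air animals of 24 h, with a median of -0.48, where 44.8% of all probe sets were higher. Limma called 0 of the 50 tested members (0% of tested probe sets called higher and 0.00504% lower), and at an unadjusted p under 0.05 there was 1 member higher and 1 lower, against 3.45% and 2.36% of tested probe sets. The groups did not overlap for 0 genes higher and 2 lower, Efhc2 and Dnah2, against 1.99% and 2.64% of all probe sets. Without animals 18 and 22 the median was -0.47. The value leant on animal 10, since the median of the 50 tested genes was -0.45 with it and -0.12 without it.

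Within exposed animals, nearly all members had lower means at 6 h than at 3 h. At 6 h 2 of the 55 genes were higher and 53 lower than at 3 h, with a median difference of -1.12, where 46.4% of all probe sets were higher. Limma called 0 of the 50 tested members (0% of tested probe sets called higher and 0.00504% lower), and 17 were lower and 0 higher at an unadjusted p under 0.05, against 1.96% and 2.25% of tested probe sets. For 28 genes all 3 animals of 6 h lay below all 4 animals of 3 h, against 3.54% of all probe sets, and for 1 gene above, against 2.74%. Without animals 6, 14 and 18 the median was -0.96 and 28 genes were lower without overlap, where the share of all probe sets was 5.2%. Without animal 10 the median of the 50 tested genes was -0.78, against -1.17 with it.

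At 24 h, 42 genes were higher and 13 lower in H2S than in air animals, with a median of 0.36, where 44.7% of all probe sets were higher, and 0 of the 55 genes were without overlap, against 1.58% of all probe sets higher and 1.66% lower. Limma called 0 of the 50 tested members (0.00504% of tested probe sets called in each direction), and 2 were higher and 0 lower at an unadjusted p under 0.05, against 4.8% and 3.29% of tested probe sets. The median of the 50 tested genes was 0.82 without animal 13 and 0.18 without animal 12, against 0.39 with both. Restricted to the 19 arrays that carry such a number it was 0.20, and 0.014 with the covariate. Over all 55 genes it was 0.20 without animals 6, 14 and 18, with 41 higher and 14 lower, and 0.37 without animals 18 and 22, with 48 higher and 7 lower.

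The remaining steps pointed up without a call. Between 24 h and 6 h of exposed animals, 51 genes were higher and 4 lower at 24 h (median 0.79), with 0 of 50 called (0.0101% of tested probe sets called higher and 0% lower) and 2 at an unadjusted p under 0.05, against 1.77% of tested probe sets higher. Between 144 h and 24 h of exposed animals, 52 were higher and 3 lower at 144 h (median 1.00), with 0 of 50 called (0% of tested probe sets in each direction) and 13 higher at an unadjusted p under 0.05, against 1.32% of tested probe sets. Rsph3 is among these 13 and passed the filter only through animals of 144 h, so it adds no support there. Air animals differed too: 44 genes were higher and 11 lower at 144 h than at 24 h (median 0.37), with 0 of 50 called (0% in each direction) and 3 higher and 0 lower at an unadjusted p under 0.05, against 5.1% and 3.27% of tested probe sets. That median was 0.14 without animals 18 and 22, with 34 genes higher and 21 lower. Without animals 6, 14 and 18 the medians were 0.68 for 24 h against 6 h, 1.19 for 144 h against 24 h and 0.37 between air groups.

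The exposure effect at 144 h minus that at 24 h, tested as an interaction, was positive for 44 genes and negative for 11, with a median of 0.68, where 47% of all probe sets were positive. Limma called 0 of 50 members (0% in each direction), with 1 positive and 0 negative at an unadjusted p under 0.05, against 1.78% and 2.91% of tested probe sets, so the exposure effects at the 2 times were not shown to differ. The median was 0.92 without animals 18 and 22 and 0.80 without animals 6, 14 and 18.

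**Figure D3:**
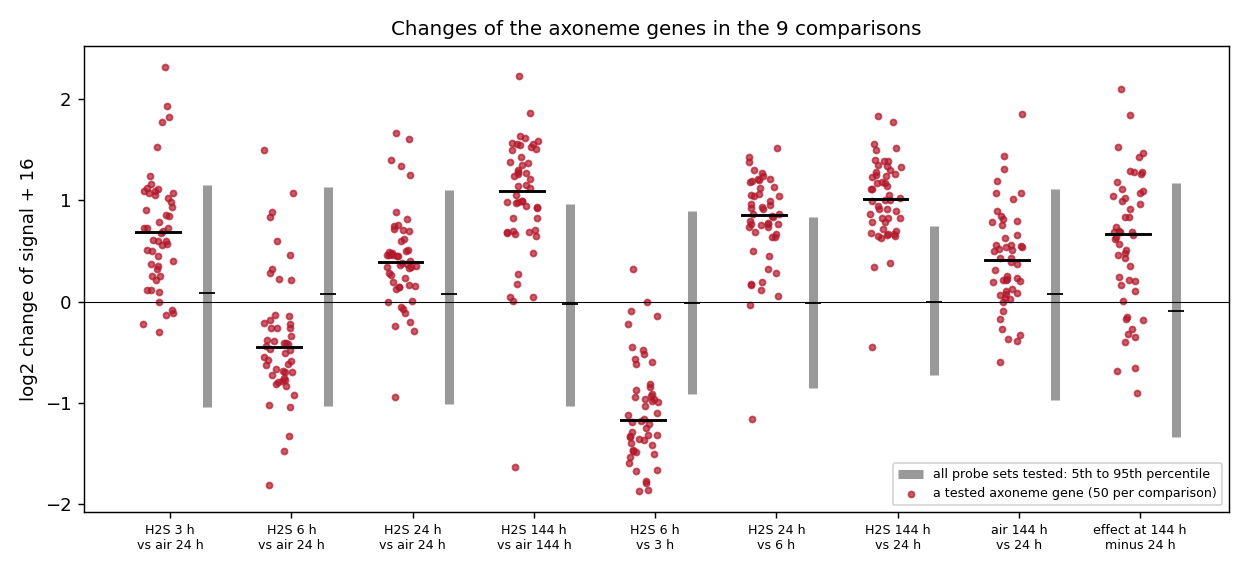
Each point is the log2 difference of 1 of the 50 tested axoneme genes in 1 of the 9 comparisons, black bars are their medians, and grey bars span the 5th to 95th percentile of all tested probe sets. The medians of 144 h against air (1.09) and of 6 h against 3 h (-1.17) lie farthest from 0, and no point passed the adjusted threshold.

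Dynein heavy chains are the motor subunits themselves. Dnah1, an inner arm chain, had 12.54, 12.56, 11.47 and 12.44 in H2S animals at 144 h, against 9.59, 11.30, 11.47 and 12.93 in air animals at 144 h. The air animal 22 lay above all exposed animals. The difference was 0.93 (SE 0.57, adjusted p = 0.707, limma), or 0.36 without animal 19 and 1.47 without animal 22. At 6 h Dnah1 had 10.27, 10.70 and 8.51, against 10.80, 10.95, 11.52 and 12.44 at 3 h, with no overlap and a difference of -1.60 (SE 0.62, adjusted p = 1.00, limma), or -0.94 without animal 10.

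Dnah2, also an inner arm chain, had the largest fitted interaction, 2.10 (SE 1.06, adjusted p = 0.946, limma). It had 12.65, 12.03, 10.78 and 11.85 in H2S animals at 144 h, against 7.54, 10.67, 10.81 and 10.84 in air animals at 144 h, and 9.77, 11.25, 7.88 and 11.09 at 24 h, against 9.70, 9.79, 10.18 and 11.29 in air animals at 24 h. The low values were those of animals 19 and 13, and the interaction was 1.30 without animal 19 and 1.40 without animal 13. Dnah7 was 1.55 higher in H2S animals at 144 h, or 0.87 without animal 19, and Dnah17, an outer arm chain known from sperm in mouse and human, was the 1 tested member lower there, by a log2 difference of -1.63, or -1.01 without animal 22. Its level was 4.45, 4.31, 5.01 and 5.50 in H2S animals at 144 h, near the floor of the scale, against 7.20, 5.20, 5.07 and 8.32 in air animals.

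Intermediate chains anchor the motors to the doublet. Dnai7 had 13.14, 12.99, 11.37 and 12.34 in H2S animals at 144 h, against 10.48, 12.31, 12.05 and 12.19 in air animals at 144 h, a difference of 0.70 (SE 0.92, adjusted p = 0.884, limma), or 0.28 without animal 19 and 1.07 without animal 25. In air animals at 24 h it had 10.98, 11.67, 11.41 and 5.55, and the low value was that of animal 18. Dnai1, an outer arm chain mutated in human primary ciliary dyskinesia, differed by 0.00 between H2S and air animals at 144 h, with either sign as single animals were left out (-0.46 to 0.36), and by -1.18 between 6 h and 3 h, or -0.68 without animal 10.

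Dnaaf5, a cytoplasmic factor needed in human airway cells for dynein arm assembly, had the smallest p of all members at 3 h, 6 h and 24 h against air. Its levels were 11.35, 12.03, 11.93 and 11.96 at 3 h, 10.87, 11.19 and 10.95 at 6 h, and 11.13, 12.28, 10.21 and 11.06 at 24 h in H2S animals, against 10.07, 11.05, 10.00 and 6.88 in air animals at 24 h. Every animal of 3 h lay above every air animal, whereas those of 6 h and 24 h overlapped with them. The differences were 2.32 at 3 h (SE 0.60, adjusted p = 0.204), 1.5 at 6 h (SE 0.65, adjusted p = 0.781) and 1.67 at 24 h (SE 0.60, adjusted p = 0.591), all by limma. The value 6.88 was that of animal 18, and without it the differences were 1.45, 0.63 and 0.80.

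At 144 h Dnaaf5 had 12.23, 12.63, 11.38 and 12.41 in H2S animals, against 10.19, 10.83, 11.13 and 11.10 in air animals, with no overlap and a difference of 1.35 (SE 0.60, adjusted p = 0.625, limma). Dnaaf10, an assembly factor of the same cytoplasmic step, had 9.54, 10.10, 8.90 and 9.82 in H2S animals at 24 h, against 9.27, 9.08, 9.35 and 7.12 in air animals. The difference of 0.88 (SE 0.46, adjusted p = 0.612, limma) was 0.35 without animal 18. All 6 assembly factors had higher means in H2S than in air animals at 144 h, by 0.68 to 1.35.

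The regulatory complex between doublets was represented by Drc1, Drc3, Drc12 and, as a ruler protein that sets the spacing of spokes and motors, Ccdc40. Drc1 had 9.41, 9.69, 10.11 and 10.42 at 3 h, against 8.09, 9.63, 9.17 and 5.64 in air animals at 24 h, with overlap and a difference of 1.77 (SE 0.66, adjusted p = 0.410, limma) that was 0.95 without animal 18. Drc12 had 13.34, 13.44, 11.53 and 13.19 in H2S animals at 144 h, against 9.71, 12.12, 12.03 and 13.41 in air animals, and overlapped between them, with a difference of 1.06 (SE 0.68, adjusted p = 0.720, limma), or 0.35 without animal 19 and 1.59 without animal 22. Drc3 was 1.59 higher in H2S animals at 144 h.

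Radial spokes carry signals from the central pair to the dyneins. Of all 7 spoke genes with no filter, 6 had higher means in H2S than in air animals at 144 h and 1, Rsph6a, had a lower one (median 1.53). Akap14, a ciliary anchor for protein kinase A, had 10.50, 11.20, 9.49 and 10.79 in H2S animals at 144 h, against 7.46, 9.35, 7.87 and 8.40 in air animals at 144 h. Even animal 25, low for most members, lay above all 4 air animals. The difference of 2.23 (SE 0.52, adjusted p = 0.553, limma) was the largest of the 50 tested members at 144 h.

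Akap14 at 24 h had 9.06, 10.52, 8.14 and 9.69 in H2S animals, against 9.03, 9.11, 8.98 and 7.26 in air animals at 24 h. The interaction, 144 h minus 24 h, was 1.47 (SE 0.74, adjusted p = 0.946, limma), so a larger exposure effect at 144 h was not shown. Against 8.78, 8.13 and 7.61 at 6 h, the level at 24 h was 1.18 higher (SE 0.56, adjusted p = 1.00, limma), with overlap.

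Ropn1l, which binds such anchors in the spoke, had 11.71, 11.58, 9.94 and 12.18 in exposed animals at 144 h, against 9.36, 10.90, 8.77 and 10.30 at 24 h. The difference was 1.52 (SE 0.57, adjusted p = 1.00, limma), and animal 25 lay within the earlier group. Rsph3, a spoke stalk protein, had 7.79, 7.95, 7.10 and 8.36 at 144 h, against 6.38, 7.12, 5.22 and 6.47 at 24 h, a difference of 1.5 (SE 0.50, adjusted p = 1.00, limma). Each animal of 144 h but 1 lay above all animals of 24 h, and the levels are low on the scale. Rsph3 passed the filter only through animals 23, 24 and 26 of the 144 h group, so it had to be higher there, and its test adds no support.

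Rsph9, a spoke head protein, had 9.65, 9.03 and 7.20 at 6 h, against 9.75, 10.23, 10.62 and 11.08 at 3 h. All 3 animals of 6 h were below those of 3 h, and the difference was -1.79 (SE 0.65, adjusted p = 0.976, limma), or -1.08 without animal 10. Rsph10b had 10.23, 11.21, 8.85 and 11.27 at 24 h, against 9.42, 9.77 and 7.85 at 6 h, a difference of 1.38 (SE 0.71, adjusted p = 1.00, limma). Its 2 probe sets disagreed, with a correlation of 0.15 over the 23 arrays, and their mean gave a difference of 0.43. Rsph1, also a spoke head protein, was 1.53 higher in H2S animals at 144 h (SE 0.70, adjusted p = 0.636, limma), or 0.81 without animal 19.

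The central apparatus was represented by Spef1, which bundles central pair microtubules, Spef2 and Spag16. Spef1 had 9.10, 9.15, 8.79 and 10.29 at 3 h, against 7.20, 8.51, 8.09 and 6.21 in air animals at 24 h, with no overlap and a difference of 1.83 (SE 0.58, adjusted p = 0.355, limma). It was 1.40 without animals 18 and 22, and 1.08 without animals 6, 14 and 18. At 24 h Spef1 had 8.22, 9.22, 8.07 and 9.85 in H2S animals, a difference of 1.34 (SE 0.58, adjusted p = 0.612, limma), or 0.57 without animals 6, 14 and 18, and the groups overlapped. Air animals at 144 h had 7.85, 8.37, 9.20 and 10.38, which is 1.44 above those of 24 h (SE 0.58, adjusted p = 0.574, limma) and 0.54 without animals 18 and 22.

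Spef2 had 9.05, 9.08, 8.06 and 8.71 in H2S animals at 144 h, against 4.53, 7.73, 8.44 and 7.64 in air animals at 144 h. The value 4.53, near the floor of the scale, was that of animal 19. At 24 h it had 7.95, 8.16, 6.35 and 7.44 in H2S animals, against 7.02, 7.63, 7.52 and 8.54 in air animals, and its interaction was 1.84 (SE 0.85, adjusted p = 0.946, limma), or 0.99 without animal 19. Spag16 did not pass the filter, with levels from 4.57 to 7.73.

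**Figure D4:**
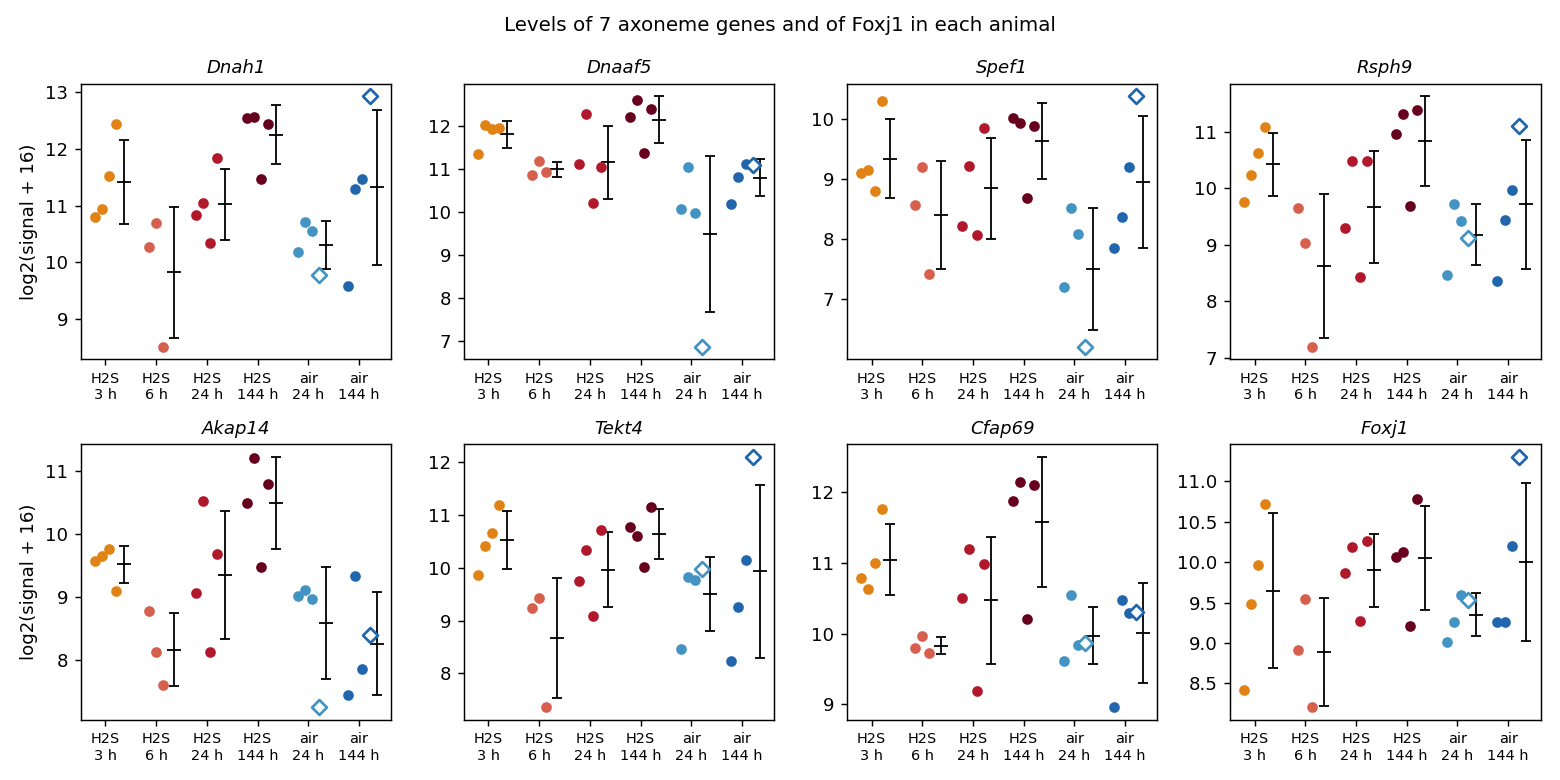
Levels of 7 axoneme genes of different roles and of Foxj1 are plotted for each animal as log2(signal + 16), with group means and SD; open diamonds mark animals 18 and 22. In Akap14 all 4 H2S animals of 144 h lie above the air animals of 144 h, while Foxj1 overlaps between these groups.

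Tektins and related proteins stiffen the doublets from within. Tekt4 had 9.24, 9.42 and 7.36 at 6 h, against 9.86, 10.42, 10.66 and 11.19 at 3 h, with no overlap and a difference of -1.86 (SE 0.68, adjusted p = 0.976, limma) that was -1.20 without animal 10. Efhc2, an inner protein of the doublet, had 6.68, 6.73 and 4.63 at 6 h, against 6.92, 7.40, 7.43 and 9.54 in air animals at 24 h. All 3 exposed animals were lower, by a fitted -1.81 (SE 0.84, adjusted p = 0.781, limma), or -1.12 without animal 10, and the value 9.54 was that of animal 18. Tekt1 was 1.26 higher in H2S than in air animals at 144 h (SE 0.65, adjusted p = 0.663, limma), or 0.65 without animal 19.

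The 19 Cfap genes code for proteins found in cilia and flagella, many of them of the doublet lumen. All 19 had higher means in H2S than in air animals at 144 h, by 0.05 to 1.57. Cfap69, which in mouse is needed for sperm tails and acts in olfactory cilia, had 11.88, 12.14, 10.21 and 12.10 in H2S animals at 144 h, against 8.96, 10.48, 10.30 and 10.31 in air animals. Animal 25 lay among the air animals and the other 3 above them, with a difference of 1.57 (SE 0.47, adjusted p = 0.580, limma). The mean of its 2 probe sets, which had a correlation of 0.77 over the arrays, gave a difference of 1.01. Cfap300, needed for dynein arm assembly in human airway cells, had 9.57, 9.76, 8.74 and 10.13, against 7.33, 8.69, 7.90 and 8.78 in air animals at 144 h, with animal 25 inside the air range and a difference of 1.37 (SE 0.43, adjusted p = 0.580, limma).

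Cfap161, a doublet lumen protein, showed the step after 3 h: 9.06, 9.01 and 7.79 at 6 h, against 10.23, 9.94, 10.78 and 10.24 at 3 h, with no overlap and a difference of -1.68 (SE 0.58, adjusted p = 0.911, limma). At 144 h it had 11.19, 11.59, 9.69 and 11.79, against 9.58, 10.66, 8.21 and 10.24 at 24 h, a difference of 1.39 (SE 0.54, adjusted p = 1.00, limma), or 0.91 without animal 13. Cfap144, another doublet lumen protein, had 14.26, 14.29, 12.95 and 14.53 in H2S animals at 144 h, against 10.46, 12.78, 12.47 and 14.32 in air animals, a difference of 1.5 (SE 0.69, adjusted p = 0.636, limma), or 0.82 without animal 19.

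Cfap100, which in the alga Chlamydomonas takes part in the control of inner arm dyneins, had 10.54, 11.45 and 9.38 at 6 h, against 10.89, 11.99, 11.78 and 12.50 in air animals at 24 h, a difference of -1.33 (SE 0.67, adjusted p = 0.781, limma), or -0.79 without animal 10. Cfap20dc had 8.21, 9.19, 7.80 and 9.34 at 24 h, against 7.90, 7.34 and 6.86 at 6 h, with overlap and a difference of 1.27 (SE 0.59, adjusted p = 1.00, limma). Cfap107, a doublet lumen protein, was the 1 member of 55 without overlap between air groups, against 1.2% of all probe sets higher and 0.886% lower: 8.83, 8.87, 9.04 and 10.83 at 144 h, against 7.75, 8.0, 8.75 and 8.80 at 24 h, a difference of 1.07 (SE 0.45, adjusted p = 0.574, limma), or 0.59 without animal 22. It differed by 0.05 between H2S and air animals at 144 h, with either sign as single animals were left out (-0.24 to 0.53).

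Ak7, an adenylate kinase of cilia, and Mlf1, which was described first as a gene of myeloid leukaemia, completed the list. Mlf1 had 13.50, 13.41, 11.85 and 14.24 in H2S animals at 144 h, against 9.48, 11.59, 13.41 and 12.28 in air animals at 144 h, a difference of 1.56 (SE 0.67, adjusted p = 0.621, limma), or 0.82 without animal 19. At 3 h it had 12.05, 12.61, 12.93 and 13.23, against 10.56, 11.34, 11.64 and 11.14 in air animals at 24 h, with no overlap and a difference of 1.53 (SE 0.67, adjusted p = 0.473, limma). Ak7 was 1.51 higher in H2S animals at 144 h, or 0.90 without animal 19.

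The members moved together from animal to animal. As a description over the 23 arrays, which share group and tissue makeup, the correlation of a gene's level with the mean of the other members was above 0.8 for 31 of 55 genes and above 0.9 for 19. Among the 50 tested members its median was 0.87 over all arrays, 0.84 after group means were taken out, and 0.92 over the 21 arrays without animals 18 and 22. The 11187 other genes tested had a median correlation with the members' mean of 0.00, with a 95th percentile of 0.55. Tekt2, Ropn1l and Cfap161 had the highest values among members, each 0.97.

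A handful of members did not follow the rest. Dnah17, Tektl1, Tekt5, Rsph6a and Tekt5l1, several of them known mainly from testis in mouse or human, had correlations from -0.35 to -0.11. All but Dnah17 failed the filter, and Dnah17 passed it only through animals 3, 18 and 22. Low signals thus limit what can be read from these correlations. Cfap97 had 0.22, Dnaaf9 0.28, Cfap418 0.33 and Cfap410 0.43. In animal 18, Rsph6a had a level of 10.07, Tektl1 10.12, Dnah17 10.08 and Tekt5l1 8.99, while Dnai7, Dnaaf9, Drc1 and Spef1 had 5.55, 5.57, 5.64 and 6.21, so that animal's array ran against the others within the list. The 2 probe sets of Dnaaf9 had a correlation of -0.60 with each other. The one not used failed the filter, with a mean level of 5.42, low on the scale, against 10.09 for the one used.

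The 8 genes outside the list whose levels were most like the members' mean over the 23 arrays were Wdr38 (r = 0.97), Spmip6 (0.96), Ift74 (0.96), Spata24 (0.95), Cimap3 (0.95), Lrrc23 (0.95), Rbks (0.94) and Trim37 (0.94). Wdr38 averaged 11.10 in H2S animals at 144 h, against 9.80 in air animals at 144 h, and 8.63 at 6 h, against 9.96 at 3 h in exposed animals. Being picked for its likeness over these same arrays, it had to follow the members and adds no support. Lrrc23 is a known spoke protein and Ift74 a carrier of intraflagellar transport, the traffic that builds cilia.

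Other genes of the ciliary pathway, in a list separate from the members, had 0 genes called in any comparison and are described here for the steps named. Of 27 further axonemal genes, all tested, 24 were higher and 3 lower in H2S than in air animals at 144 h (median 0.92), and 1 was higher and 26 lower at 6 h than at 3 h (median -1.15). Morn5 was 2.20 higher at 144 h (SE 0.73, adjusted p = 0.580, limma) and Ccdc96 1.51 higher (SE 0.50, adjusted p = 0.580, limma), or 1.00 without animal 19. Of 21 intraflagellar transport genes, all 21 were higher at 144 h (median 0.88) and all 21 lower at 6 h than at 3 h (median -0.67). Of all 31042 probe sets, 40.5% were higher in the first of these steps and 46.4% in the second. At 6 h against air animals of 24 h, 11 transport genes were higher and 10 lower (median 0.06). The further axonemal genes had 4 higher and 23 lower there (median -0.51). Kif3a, a motor subunit that carries cargo toward the cilium tip, had 9.91, 10.58, 8.99 and 10.67 in H2S animals at 144 h, against 7.25, 8.66, 8.19 and 8.45 in air animals, with no overlap and a difference of 1.90 (SE 0.46, adjusted p = 0.580, limma). Ift81, a cargo carrier of the same transport, was 1.49 higher (SE 0.45, adjusted p = 0.580, limma).

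Of 7 regulators of multiciliated cell fate on the array, all 7 were higher in H2S than in air animals at 144 h (median 0.97), with none called. Of all 31042 probe sets, 40.5% were higher there. Rfx3, a transcription factor of ciliary genes, was 1.39 higher (SE 0.46, adjusted p = 0.580, limma) and Myb 1.49 higher (SE 0.68, adjusted p = 0.636, limma). Foxj1 differed by 0.05 (SE 0.49, adjusted p = 0.990, limma; -0.20 to 0.48 as single animals were left out), with 10.06, 10.13, 9.21 and 10.78 in H2S animals, against 9.25, 9.26, 10.19 and 11.30 in air animals. Gmnc, a regulator at the top of the multiciliated programme, had 8.95, 9.95, 7.13 and 10.91 at 24 h, against 5.68, 6.98 and 6.97 at 6 h in exposed animals. All 4 animals of 24 h lay above those of 6 h, with a difference of 2.69 (SE 0.64, adjusted p = 0.342, limma).

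Markers of other cell types varied beside the axoneme genes. At 3 h, 11 of 12 leukocyte markers were higher in H2S animals than in air animals of 24 h (median 0.89), with a summed signal of 24868 to 65629 in H2S animals and 12781 to 40485 in air animals. Of 7 basal cell markers tested, 6 were higher at 3 h (median 0.63), 5 at 24 h (median 1.08) and 5 at 144 h (median 0.87) in H2S than in air animals. At 144 h the summed signal of the 8 basal markers on the array ran from 18794 to 112273 in H2S animals. In air animals of 144 h it ran from 7133 to 43549. The value 112273 was that of animal 25 and 43549 that of animal 22. Air animals 19, 20 and 21 had 7133, 14487 and 12518. At 144 h, 1 of 5 cartilage and bone markers was higher in H2S than in air animals (median -1.59) and 1 of 8 stroma and vessel markers (median -0.67). The summed signal of the cartilage and bone markers at 144 h ran from 23209 to 47146 in H2S animals and from 25512 to 137000 in air animals. That of the stroma and vessel markers ran from 119648 to 145386 in H2S animals and from 115294 to 417637 in air animals. Both air maxima were those of animal 22, and without it the air sums reached 61986 and 288219. Between 6 h and 3 h in exposed animals, 2 of 9 secretory and goblet markers were higher at 6 h (median -0.97) and 0 of 12 leukocyte markers (median -0.67). The summed signal of the 11 secretory markers on the array ran from 39954 to 90877 at 6 h and from 81091 to 134259 at 3 h, and that of the leukocyte markers from 13011 to 71270 at 6 h and from 24868 to 65629 at 3 h. Of 9 olfactory markers, 2 were higher at 3 h (median -0.63), 6 at 24 h (median 0.27) and 3 at 144 h (median -0.39) in H2S than in air animals. Secretory and goblet markers at 144 h were higher for 4 of 9 (median -0.03). Beside these counts, 46.8% of all 31042 probe sets were higher at 3 h, 44.7% at 24 h and 40.5% at 144 h against air. At 6 h against 3 h, 46.4% were higher. Of these marker lists none had a member called, and their part in the axoneme differences was not tested.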

How the data were processed

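RNA of laser-captured rat nasal epithelium was measured on 23 Affymetrix Rat230_2 arrays, 1 per animal. The deposited values are intensity, a linear signal per probe set. GCOS 1.0 is named in the submitters' processing notes, and its settings are not stated in the labels. RNA was isolated with PicoPure and amplified with RiboAmp OA, per the labels' protocols. The 2% trimmed mean was 500.05 to 500.17 on each array, so no further normalization was applied. The number of arrays limits the precision.

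Levels are log2 of the deposited intensity plus 16. Of 31099 probe sets, 57 controls were left out and 19822 were kept, each with a signal over its array's median on 3 or more arrays. Groups follow the sample titles. All 23 arrays entered 1 fit in limma 3.58.1 (R 4.3.3; lmFit and eBayes, two-sided), with Benjamini-Hochberg adjustment over the kept probe sets. The step was tested on simulated data. Symbols are those of the platform table: 20826 probe sets had 1 and 436 several. No detection calls, sequences or genome positions were used.

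The members and all lists were chosen with earlier results of these data known, so directions seen before are no independent support. Named in full were the 3 tested members with the smallest p in each comparison and the member with the highest mean level of each role. From other lists the 2 genes with the smallest p were named; Foxj1 was allowed anywhere. Dnah7, Dnah17, Dnai1, Drc3, Ak7 and members that did not follow the rest were named with values after these were seen. As alternatives, the fit was repeated with a pseudocount of 1 or 64, with arrays quantile-normalized or centred on their medians, with every probe set or only those over the 75th percentile on 3 arrays, with array weights, on the compared groups alone, with RNA integrity number as a covariate, with all probe sets of a gene averaged, without animals of doubtful label or array, and without each animal in turn.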

Additional observations from a re-analysis of the deposited data

Results flagged for a closer look

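Within groups of 4 animals, 17 of 135 sets of values tested had 1 animal far from the other 3, where chance gives about 1 in 20. The sets are not independent, since the members move together. In H2S animals at 144 h the far animal was animal 25, which was low. Its mean level of all 55 genes was 9.26 (the others 10.46 to 10.68), and it had 12.95 for Cfap144, 10.21 for Cfap69, 11.47 for Dnah1, 11.53 for Drc12, 10.18 for Rsph10b and 8.68 for Spef1. In air animals at 144 h, animal 19 was low for Cfap69 (8.96), Dnah2 (7.54) and Dnai7 (10.48), and animal 22 was high for Cfap107 (10.83). In air animals at 24 h, animal 18 was low for Akap14 (7.26), Dnaaf10 (7.12) and Dnai7 (5.55), and animal 15 for Tekt4 (8.47). Animal 13 was low for Cfap100 (10.37) among H2S animals at 24 h, and animal 3 for Dnaaf5 (11.35) among those at 3 h. No cause of these values was tested.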

How the results depend on the processing

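Under 13 other settings and without single animals, all 388 counts of called members, 1 per comparison and direction, were 0, and the 577 alternative values of the 3 members with the smallest p in each comparison kept their direction, with a smallest adjusted p of 0.0502 (limma, Dnaaf5 at 3 h with array weights, where its adjusted p ran up to 0.929 in other settings). When RNA integrity number was added as a covariate, on 19 arrays without animals 5, 6, 9 and 15, the median change of the tested members was 0.0138 at 3 h against air, -1.16 at 6 h against air, 0.0144 at 24 h against air and 1.29 for the difference of the exposure effects, against 0.30, -0.89, 0.20 and 0.92 on those 19 arrays with no covariate and 0.69, -0.45, 0.39 and 0.67 on all. It was -0.0161 for air at 144 h against air at 24 h, against 0.18 and 0.41, the one median of the members that changed sign. The cause was not tested. For H2S against air at 144 h the median with the covariate was 1.33, against 1.09 with no covariate on those 19 arrays and on all. Taken relative to all genes of the array, the members' mean level was 1.05 at 3 h, 0.0903 at 6 h, 0.790 at 24 h and 1.76 at 144 h in H2S animals, and 0.504 at 24 h and 0.784 at 144 h in air animals. Median centring shifts all genes, since the log2 array medians averaged 7.30 for H2S and 7.58 for air at 24 h, and 7.25 for H2S and 7.62 for air at 144 h. Animals 18 and 22 raised the air means. They had 8.41 and 8.05, against 7.16 to 7.52 in the other air animals of 24 h and 7.30 to 7.70 in those of 144 h. With median centring the members' median change was 0.87 at 3 h, -0.19 at 6 h and 0.66 at 24 h.

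Leaving out 1 animal at a time, the median change ran from 0.48 to 0.84 at 3 h, -0.70 to -0.12 at 6 h, 0.18 to 0.82 at 24 h and 0.71 to 1.55 at 144 h against air, from -1.35 to -0.78 for 6 h against 3 h, 0.57 to 1.30 for 24 h against 6 h, 0.65 to 1.36 for 144 h against 24 h, 0.06 to 0.79 between air groups and 0.23 to 1.08 for the difference of effects. Single animals that moved a median by over 1.5 times, beside those named above, were animal 9 at 6 h (-0.70), animal 19 between air groups (0.79) and for the difference of effects (0.23), animal 22 for that difference (1.08), and animal 13 for 24 h against 6 h (1.30) and 144 h against 24 h (0.65). Animal 15 also moved the medians at 6 h (-0.68), at 24 h (0.20) and between air groups (0.18), animal 8 that at 6 h (-0.68), animal 14 that at 24 h (0.22), animal 22 that between air groups (0.06) and animal 13 the difference of effects (0.28). Rsph10b at 24 h against 6 h was 0.80 without animal 10, and Dnaaf5 between air groups was 0.44 without animal 18, against 1.31. No paired analysis was possible because the labels give each animal its own number, shared by no other group. Signals near the pseudocount limit what can be said of Dnah17, Efhc2 and Rsph3. Of 26 other values named, tried without animals after the values were known and with no test, Dnai1, Cfap107 and Foxj1 at 144 h took either sign.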
